A study of Mus musculus with 3 samples.

Results

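The genes described here encode the laminin chains, nidogens and heparan sulphate proteoglycans of the basement membrane. They are 10 of the 21782 genes in the count table, picked by family and name: the laminin chains Lama2, Lama4, Lama5, Lamb1, Lamb2 and Lamc1, the nidogens Nid1 and Nid2, perlecan (Hspg2) and agrin (Agrn). The data are RNA-seq libraries of WT MEFs, fibroblasts grown in culture from E12.5 mouse embryos (embryonic day 12.5) and harvested while cycling asynchronously. There are 3 libraries, which the methods describe as 3 clones, and no other genotype or treatment, so values are compared between clones and between genes and no condition was tested. Each clone has a single library, and a clone cannot be told apart from its culture or its library.

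A basement membrane is a thin sheet of extracellular matrix that lies under epithelia and endothelia and around muscle, fat and Schwann cells. Its laminins are cross-shaped trimers of an alpha, a beta and a gamma chain, which polymerize on the cell surface and are held there through integrins and dystroglycan by the globular end of the alpha chain. Nidogens bind the gamma 1 chain on one side and collagen IV on the other, and perlecan and agrin carry heparan sulphate chains that bind growth factors and tie the network to cells. Fibroblasts and other mesenchymal cells are known to secrete much of this material.

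The point where laminin and nidogen meet lies in the gamma chain. It is shown here for Lamc1 and Lamc3 because the results below set Lamc1 against the nidogens. Each line gives 51 bases of coding sequence from the GENCODE M21 transcripts. The 7 codons of the nidogen-binding stretch of gamma 1 are in capitals, as are the codons aligned with them in gamma 3.
Lamc1: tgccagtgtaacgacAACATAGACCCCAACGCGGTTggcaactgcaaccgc
Lamc3: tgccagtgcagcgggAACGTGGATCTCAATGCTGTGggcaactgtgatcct
The capitals of Lamc1 encode residues 831 to 837. Its 51 bases lie in exon 14 of 28, at chr1:153243346-153243396 of GRCm38 on the minus strand. The capitals of Lamc3 encode residues 827 to 833, and its 51 bases lie in exon 14 of 28 at chr2:31920583-31920633. Of the 7 residues in capitals in Lamc3, 5 are the same as in gamma 1. The exact residues of gamma 1 occur once in its 1607 residues and in none of the other 14 proteins searched, which were the other members and further laminin chains.

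All 10 genes were transcribed in every clone. Their counts together were 0.728% to 0.915% of all counts. Levels are given as CPM, the counts of a gene per 1000000 counts after scaling of the library sizes, and for comparisons between genes as CPM per kb of the isoform with the longest coding sequence. Per kb, Nid1, Hspg2 and Lamb1 formed the top of the order, Lamb2, Lamc1, Nid2, Lama5 and Agrn followed, and Lama4 and Lama2 were lowest. From Nid1 (292 ± 1.54 CPM per kb, SD, n = 3 clones) to Lama2 (4.46 ± 0.390 CPM per kb) the mean level differed by 65.4-fold. Of the 9 pairs of neighbours in this order, 4 were separated, which here means the same order in all 3 clones and a mean log2 ratio above 2 SD. These were Hspg2 over Lamb1 (0.33 ± 0.14 on the log2 scale, SD), Lamb1 over Lamb2 (1.70 ± 0.13), Lamc1 over Nid2 (0.44 ± 0.11) and Agrn over Lama4 (2.28 ± 1.02). The other 5 pairs, Nid1 and Hspg2, Lamb2 and Lamc1, Nid2 and Lama5, Lama5 and Agrn, and Lama4 and Lama2, did not differ beyond their spread. With 3 clones, an exact two-sided sign-flip permutation test cannot give a p-value below 0.25, so no such test could pass.

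**Figure D1:**
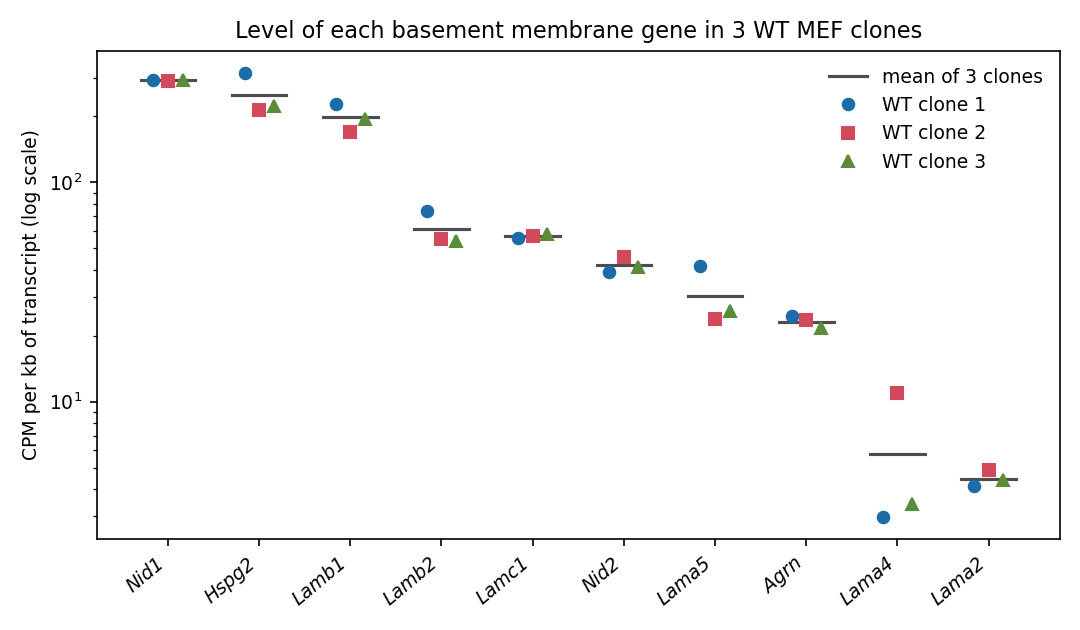
Level of each gene in CPM per kb of transcript (log axis), with 1 point per WT clone and a bar at the mean of the 3 clones, genes in the order of their means. The points of Nid1 and Lamc1 nearly coincide, and those of Lama4 are the farthest apart, with clone 2 above the others.

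Laminin alpha chains decide which cells and receptors a trimer binds. Counts of Lama5, the broadly used alpha 5 chain, were 11735, 6150 and 7456 in clones 1, 2 and 3, or 472, 273 and 295 CPM. Clone 1 was 1.73 times clone 2 (95% counting interval 1.68 to 1.79) and 1.60 times clone 3 (1.55 to 1.65). The intervals here and below cover counting error only. The mean was 347 ± 109 CPM (SD, n = 3). The gene (GRCm38, chromosome 2, 180176373 to 180225859, minus strand, 79 exons) encodes 3718 residues.

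Lama4, the alpha 4 chain typical of vessels, fat and developing mesenchyme, went the other way and was the most uneven of the genes. Its counts were 448, 1480 and 519 in clones 1, 2 and 3, or 18.0, 65.6 and 20.5 CPM. Clone 2 stood 3.19 times above clone 3 (2.89 to 3.54), whereas clone 1 was 0.878 times clone 3 (0.772 to 0.998). In the edgeR fit its biological coefficient of variation (the part of the spread that counting does not account for) was 0.459, against a median of 0.158 over all 12218 genes tested, and it was 0.140 without clone 2 and 0.697 with the DESeq2 dispersion. Alpha 4 (chromosome 10, 38965515 to 39110188, plus strand, 38 exons) is the shortest of these alpha chains at 1816 residues.

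Lama2, the alpha 2 chain of muscle and peripheral nerve, was low and nearly even. Its counts were 984, 1059 and 1062 in clones 1, 2 and 3, a mean of 42.9 ± 3.75 CPM (SD, n = 3). The gene (chromosome 10, 26980036 to 27619758, minus strand, 65 exons) encodes 3118 residues. In global alignments, the alpha 2 and alpha 5 chains shared 34.2% of 2912 aligned residues, alpha 4 and alpha 5 33.2% of 1728, and alpha 2 and alpha 4 27.1% of 1670.

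Lama1 and Lama3, the alpha chains of the early embryo and of skin, were minor. Lama1 had 146, 64 and 100 counts (4.22 ± 1.54 CPM, SD, n = 3) and Lama3 6, 9 and 5 counts (0.280 ± 0.106 CPM) in clones 1, 2 and 3. Among all 5 alpha chains, Lama5 made up 84.3%, 59.8% and 76.0% of the level per kb in clones 1, 2 and 3, a mean of 73.4% ± 12.4 (SD, n = 3). The Lama4 share was 6.06%, 27.1% and 9.96% in the same clones, and that of Lama2 8.37%, 12.2% and 12.8%. Lama5 was thus the main alpha chain in each clone. As shares of raw counts, Lama5 had 88.1% (95% Wilson interval 87.5 to 88.6), 70.2% (69.2 to 71.1) and 81.6% (80.7 to 82.3).

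Beta chains are shared by most trimers, and Lamb1 and Lamb2 both pair with gamma 1. Lamb1 had 32671, 22216 and 28516 counts in clones 1, 2 and 3, or 1143 ± 165 CPM (SD, n = 3). Lamb2, the beta chain of the neuromuscular junction and kidney filter, had 10362, 6983 and 7714 counts, or 344 ± 63.3 CPM. Both were highest in clone 1. Lamb1 took 75.4%, 75.6% and 78.2% of the beta level per kb, a mean of 76.4% ± 1.59 (SD, n = 3), and Lamb2 nearly all of the rest. The Lamb1 to Lamb2 ratio therefore varied little while both genes varied between clones. Lamb3, the beta chain of skin laminin, had 10, 12 and 7 counts.

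Lamb1 lies on chromosome 12 (31265234 to 31329644, plus strand, 33 exons) and Lamb2 on chromosome 9 (108479736 to 108490530, plus strand, 33 exons). Their proteins of 1834 and 1799 residues were identical at 922 of 1790 aligned positions (51.5%). Neither transcript had an 86-nt stretch, the length of a read, that was found within 2 mismatches in another gene.

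Lamc1, the gamma chain of most laminins, was among the most even of the genes. It had 10610, 9785 and 11191 counts in clones 1, 2 and 3, or 435 ± 8.04 CPM (SD, n = 3), and the highest clone was 1.04 times the lowest. Lamc3, the gamma 3 chain, had 18, 32 and 10 counts (0.847 ± 0.522 CPM). Lamc1 lies on chromosome 1 (153218922 to 153332786, minus strand, 28 exons) and carries the nidogen-binding codons printed above.

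Summed over each family, beta transcripts were more abundant than alpha transcripts and than Lamc1 in every clone. The summed levels were 41.1 ± 7.60 CPM per kb for alpha and 259 ± 38.9 for beta chains, and Lamc1 stood at 57.0 ± 1.05 CPM per kb (SD, n = 3). The ratio of summed beta chains to Lamc1 was 5.38, 3.96 and 4.29 in clones 1, 2 and 3, and that of Lamc1 to summed alpha chains 1.14, 1.42 and 1.70. The size of the first ratio depends on the length used, since Lamc1 has long untranslated ends: per kb of coding sequence its mean was 3.02 ± 0.493 in place of 4.54 ± 0.744 (SD, n = 3). In either case all clones kept the order of beta chains, Lamc1 and alpha chains. These are transcript levels, and protein was not measured.

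**Figure D2:**
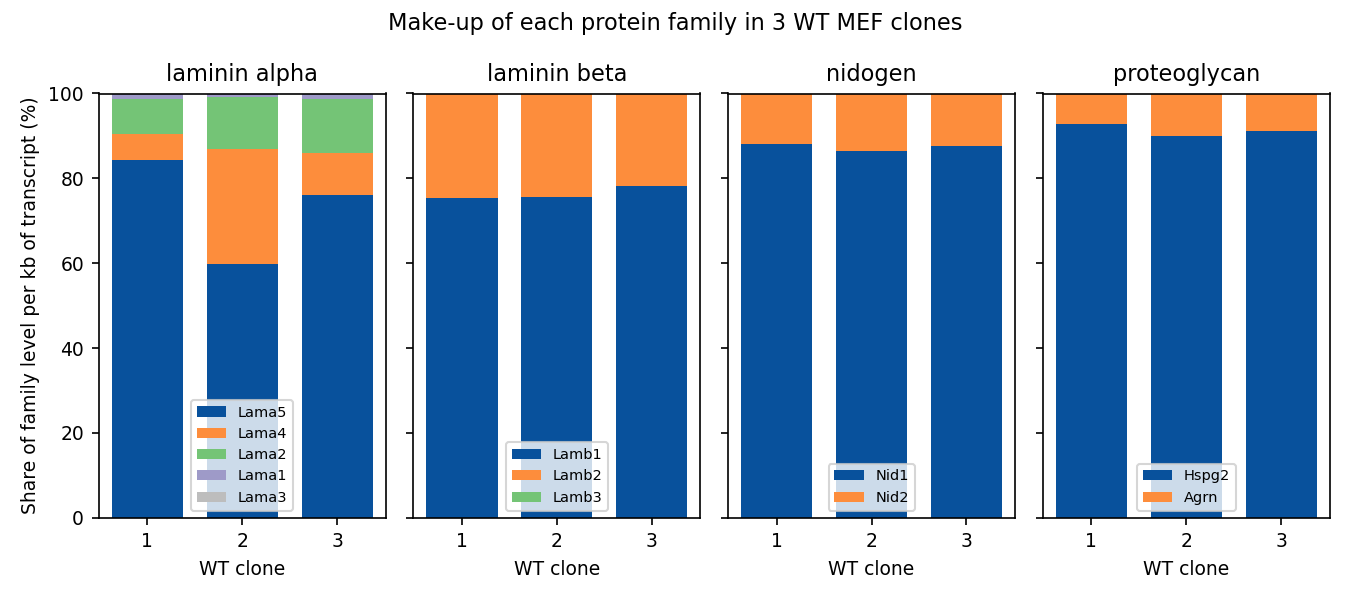
Share of each gene in its family's summed level per kb of transcript (%, stacked bars), by WT clone. Lamb1, Nid1 and Hspg2 take similar shares in all clones, while the Lama5 share is lowest (59.8%) and the Lama4 share highest (27.1%) in clone 2.

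Nidogen-1 was the most even gene of the family and the highest per kb on average. Nid1 had 44126, 39883 and 45145 counts, or 1776, 1769 and 1787 CPM in clones 1, 2 and 3, so that the highest clone was 1.01 times the lowest. Nid2 had 4730, 5020 and 5091 counts (205 ± 16.4 CPM, SD, n = 3) and was highest in clone 2. Nid1 made up 87.4% ± 0.912 of the nidogen level per kb (SD, n = 3).

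Both nidogens together stood at 5.90, 5.90 and 5.76 times the Lamc1 level in clones 1, 2 and 3. Of the ratios of beta chains, nidogens and proteoglycans to Lamc1, this one had the smallest relative spread. Its mean was 5.85 ± 0.0823 (SD, n = 3), or 5.82 ± 0.0798 per kb of coding sequence. Nid1 lies on chromosome 13 (13437551 to 13512269, plus strand, 20 exons) and Nid2 on chromosome 14 (19751265 to 19811787, plus strand, 21 exons). Their proteins of 1245 and 1403 residues shared 48.0% of 1186 aligned positions. Nid2 counts are less certain, since 7.35% of its 86-nt stretches matched Rtraf, whose exons overlap it on the opposite strand, and 3.45% of those of Nid1 matched Gm2399 or Gm48682.

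Perlecan, the large heparan sulphate proteoglycan encoded by Hspg2, had the most counts of all members. They were 111271, 68301 and 79919 in clones 1, 2 and 3, or 4479, 3029 and 3164 CPM, and by mean CPM the gene was number 22 of the table. Clone 1 was 1.48 times clone 2 (1.46 to 1.49) and 1.42 times clone 3 (1.40 to 1.43). Per kb of transcript its place against Nid1 was not settled, with Hspg2 above Nid1 in clone 1 and below it in clones 2 and 3. Per kb of coding sequence Nid1 stood higher, with a mean log2 ratio over Hspg2 of 0.84 ± 0.31 (SD, n = 3). Hspg2 spans 97 exons on chromosome 4 (137468769 to 137570630, plus strand) and encodes 4383 residues.

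Agrin organizes acetylcholine receptors at the neuromuscular junction and is also made outside nerve. Agrn (chromosome 4, 156165290 to 156197488, minus strand, 36 exons) had 4194, 3658 and 3771 counts, or 160 ± 9.92 CPM (SD, n = 3), in clones 1, 2 and 3. Its share of the proteoglycan level per kb was 8.66% ± 1.37 (SD, n = 3), the rest being Hspg2. The counts do not tell the nerve isoform of agrin from the others. Of its receptors at the junction, Lrp4 had 266, 217 and 275 counts, and Musk had 0 counts in every clone, which allows up to 0.133 CPM in the shallowest library.

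Differences between clones were tested for each gene by setting its counts against the scaled library sizes (Pearson chi-square), with Benjamini-Hochberg adjustment over all 12218 genes that had at least 10 counts in every clone. All 10 members were tested and 9 were called at an adjusted p-value under 0.05. This share has to be read against the background, since 62.5% of all genes tested were called, and 80.6% of those with a mean at or above that of Lama4, the member with the lowest CPM. By this chi-square test Nid1 was not called (adjusted p = 0.367), Lamc1 was called narrowly (adjusted p = 0.0396), and Lama2 (adjusted p = 0.00104) and Agrn (adjusted p = 7.13e-07) were called with small ranges. The call of Lama2 was lost without clone 2 (adjusted p = 2.63e-01) and that of Agrn without clone 3 (adjusted p = 1.29e-01), by the same chi-square test. The median range from the highest to the lowest clone was 1.26-fold for the members and 1.24-fold for all genes tested. For genes with a mean at or above that of Lama4 it was 1.17-fold. Without clone 1, without clone 2 or without clone 3, 7 members were called in each case, against 31.7%, 45.3% and 53.0% of all genes tested. The test compares libraries, and a call says only that they differ beyond counting error.

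Of the members, 1 was called with a range of at least 2-fold, Lama4, against 7.93% of all genes tested. Without clone 2, no member was, and Lama4 was not called (range 1.14-fold, adjusted p = 8.19e-02 by the same chi-square test). The call of Lamc1 was lost with DESeq2 size factors (adjusted p = 8.05e-02), with no filter on low counts (5.01e-02), without clone 1 (2.64e-01) and without clone 3 (3.44e-01). Nid1 was called when total counts were used for scaling (adjusted p = 3.67e-09, range 1.04-fold). Over all the alternatives run, the range between clones was at most 1.07-fold for Lamc1 and 1.04-fold for Nid1. The call was the same under every alternative for 4 members, Hspg2, Lama5, Lamb1 and Nid2.

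Opposite profiles were seen among the genes that differed. Hspg2, Lama5, Lamb1, Lamb2 and Agrn were called and highest in clone 1, which makes 5 of the 10, against 23.8% of all genes tested. For Agrn, clones 1 and 2 did not differ beyond counting error (ratio 1.04, 0.995 to 1.09). Of the members, 3 (Hspg2, Lama5 and Lamb1) were called and lowest in clone 2, against 21.3% of all genes tested. Lama4, Lama2 and Nid2 were highest in clone 2 and lowest in clone 1. For Lama2 and Nid2 these ranges were 1.19-fold and 1.17-fold. Lamb2 was at the same level in clones 2 and 3 (ratio 1.01, 0.982 to 1.05), and without clone 1 it was not called.

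The fibroblast markers, led by Col1a1, Fn1 and Col1a2, were present in all clones. On the scale of log2(CPM + 1), their median shift against the average of all clones was 0.23, -0.09 and -0.10 in clones 1, 2 and 3. The list was split, since all 12 markers were called, 8 highest in clone 1 and 4 in clone 2. Highest in clone 2, as Lama4 was, were Thy1 (893, 1387 and 874 CPM) and Pdgfra (11.8, 27.3 and 16.8 CPM). The same held for S100a4 (393, 593 and 360 CPM) and Vim (3789, 4191 and 4026 CPM). All 9 macrophage markers matched, among them Lyz2, Csf1r and C1qa, were highest in clone 2, where they summed to 1657 CPM against 346 in clone 1 and 285 in clone 3. The 6 proliferation markers were lowest in clone 1 (summed 368, 723 and 609 CPM) and the 3 arrest markers, Cdkn1a, Cdkn2a and Cdkn2b, highest there (587, 411 and 464 CPM). Lama4 thus was high in the library with the most macrophage transcripts, which also had the most proliferation and the fewest arrest transcripts. Hspg2, Lama5, Lamb1 and Lamb2 were high in the library with the fewest proliferation and the most arrest transcripts. The part of macrophages and of proliferation in these differences was not tested, and in bulk RNA fewer cells of a type cannot be told apart from less RNA per cell.

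Cells that usually make Lama4 or wear a basement membrane were looked for by their markers. Of the 10 endothelial markers, Tie1 and Cldn5 had 0 counts in every clone, Pecam1 had 6, 15 and 6 and Cdh5 4, 6 and 2. Vwf had 17, 22 and 7 counts and Egfl7 129, 147 and 118, so these markers, like Pecam1 and Cdh5, were highest in clone 2, as Lama4 was. Other markers of the list did not go with Lama4. Emcn had 307, 4 and 242 counts, Esam 19, 12 and 20 and Tek 9, 6 and 9, all lowest in clone 2. Kdr, the marker with the highest mean CPM of the list, had 163, 214 and 314 counts and was highest in clone 3. The summed level of the list, 26.3, 18.9 and 28.4 CPM in clones 1, 2 and 3, was lowest in clone 2 through Emcn, and the part of endothelial cells in the Lama4 difference was not tested. Epithelial markers summed to 4.21 to 10.3 CPM, with Esrp1 at 0 counts, and Schwann cell markers to 4.95 to 7.01 CPM. The skeletal muscle markers summed to 200 to 223 CPM, mostly Acta1 and Des, with Pax7 and Myod1 at 4 counts or fewer. Acta1 had 3235, 3805 and 3093 counts and was highest in clone 2. Des had 1778, 701 and 2438 counts and was highest in clone 3. Also highest in clone 3, at low counts, were Myh3 (6, 0 and 47) and Actc1 (4, 1 and 38). The same held for Tmem8c (2, 0 and 12) and Myog (1, 0 and 10). The pericyte and smooth muscle list was high and even (10575 to 10799 CPM), mostly through Acta2 and Tagln, which cultured fibroblasts also express. Of that list, Rgs5, a pericyte marker, had 283, 26 and 323 counts and Myh11, the smooth muscle myosin, 4935, 1801 and 4292, both lowest in clone 2. Notch3 (57.7, 24.7 and 41.3 CPM) and Abcc9 (1.57, 1.06 and 1.43 CPM) were also lowest there. The list was not uniform, since Cspg4 was even (355, 350 and 362 CPM). Cnn1 (463, 488 and 472 CPM) and Kcnj8 (1.29, 1.51 and 1.19 CPM) were highest in clone 2.

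**Figure D3:**
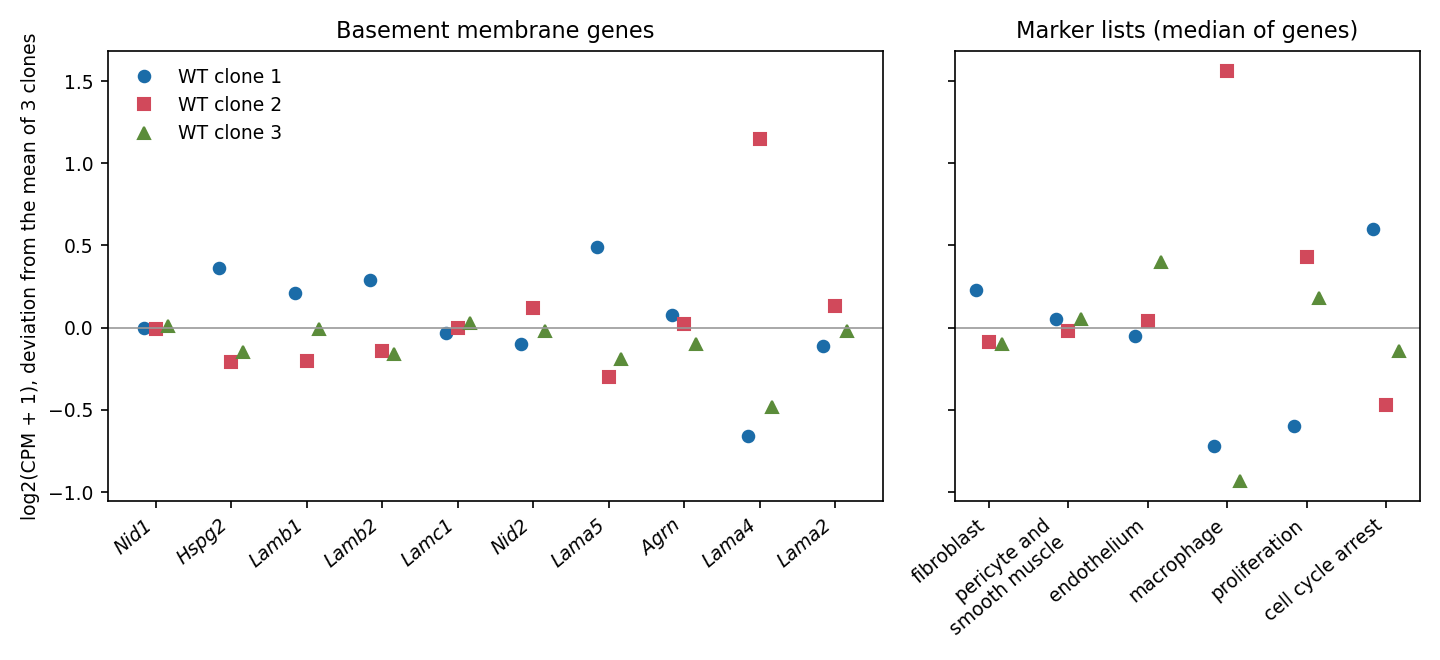
Deviation of log2(CPM + 1) in each WT clone from the mean of the 3 clones, for each gene (left) and as the median of the genes with at least 1 CPM in marker lists (right). Lama4 and the macrophage list are highest in clone 2 (1.15 and 1.56), and Hspg2, Lama5, Lamb1 and Lamb2 are highest in clone 1.

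Promoters are shown for Hspg2, Lama5 and Lamb2, chosen because all stood well above the other clones in clone 1, and for Nid1, which was even. Each line gives the 90 bases before the earliest start that GENCODE M21 annotates for the gene, 5′ to 3′ on its own strand, taken from the RefSeq promoter table on GRCm38.p6. The start in that table is the same for Lama5 and lies 34 bp further into the gene for Hspg2, 51 for Nid1 and 126 for Lamb2. Capitals mark a match on either strand to any of the motifs searched. These were the GC box, a site of the Sp1 family of factors, spelled GGGCGG. They also included the TATA box that positions the start of transcription in a minority of genes, spelled TATAAA, and the CAAT box, a site of the factor NF-Y upstream of many starts, spelled CCAAT. No matches overlapped in the stretches printed.
Hspg2, chr4:137468679-137468768, plus strand: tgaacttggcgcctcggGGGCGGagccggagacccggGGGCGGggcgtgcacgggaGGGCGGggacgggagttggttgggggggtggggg
Lama5, chr2:180225860-180225949, minus strand: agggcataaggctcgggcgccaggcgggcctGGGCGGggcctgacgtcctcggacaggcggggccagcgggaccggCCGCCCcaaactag
Lamb2, chr9:108479646-108479735, plus strand: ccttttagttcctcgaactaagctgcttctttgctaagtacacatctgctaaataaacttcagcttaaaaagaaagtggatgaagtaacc
Nid1, chr13:13437461-13437550, plus strand: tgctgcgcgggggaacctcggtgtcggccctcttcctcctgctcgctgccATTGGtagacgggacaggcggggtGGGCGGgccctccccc
The Hspg2 stretch holds 3 GC boxes and the Lama5 stretch 2, that of Nid1 holds 1 GC box and 1 CAAT box, and that of Lamb2 holds none of these motifs. Of the printed genes that were high in clone 1, Hspg2 and Lama5 thus hold GC boxes there and Lamb2 does not. Lamb1 and Agrn, also highest in clone 1, were not printed. A link between these letters and the levels in clone 1 was not tested.

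In windows from 250 bases before to 50 after the RefSeq start, 7 members had an entry. For Lama2 that start lies 2816 bp inside the gene as placed above, for Lamb1 59 bp inside, and for Agrn it is the same. GC boxes numbered 12 in Agrn, 5 in Hspg2, 4 in Lama5, 2 in Lamb1, 1 in Nid1, 1 in Lama2 and 0 in Lamb2. Of all 32851 promoter windows in the table, 35.7% held at least 1 GC box, 37.4% a CAAT box and 13.6% a TATA box, and 10.7% held 3 GC boxes or more. None of the 7 windows held a TATA box. The GC content was 83.3% for Agrn, 72.7% for Lama5 and 70.3% for Hspg2, against a median of 52.7% for all windows, and 44.0% for Lamb2. Matches of this kind describe the letters and show no binding.

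Collagen IV is the network that nidogen joins to laminin, and its alpha 1 and alpha 2 chains come from neighbouring genes. Col4a1 had 146605, 106850 and 127622 counts and Col4a2 112870, 77473 and 92310 in clones 1, 2 and 3, both highest in clone 1 and lowest in clone 2 as were Hspg2, Lama5 and Lamb1. Per kb, Col4a1 was 1.32 ± 0.0462 times Col4a2 and 13.9 ± 1.79 times Lamc1 (SD, n = 3). Col4a5 followed at 264 ± 36.8 CPM, while Col4a3 and Col4a4, the chains of the kidney filter, stayed at 20 counts or fewer. Of the 8 collagens on the list, 7 were tested and 6 called, 3 highest in clone 1 and 3 in clone 2, against 62.5% of all genes tested that were called and 23.8% that were called and highest in clone 1. Col15a1, named after its values were seen, resembled Lama4 with 403, 1312 and 642 counts.

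Of 16 other basement membrane components, 14 were tested and 13 called (62.5% of all genes tested were), 7 highest in clone 1 (23.8% of all genes tested), 3 in clone 2 and the other 3 in clone 3, with a median range of 1.53-fold. The most abundant were Sparc, a collagen-binding matricellular protein (7701 ± 379 CPM), Fbln2 (fibulin-2, 7630 ± 1230 CPM) and Pxdn, the enzyme that cross-links collagen IV (670 ± 13.2 CPM, SD, n = 3). Pxdn had 16707, 14798 and 17238 counts and a range of 1.04-fold, as narrow as that of Lamc1.

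The receptors of laminin were unequal in level. Itgb1, the beta 1 integrin subunit shared by most matrix receptors, had 4522 ± 284 CPM (SD, n = 3). Among its alpha partners for laminin, Itga3 had 138, 111 and 136 CPM in clones 1, 2 and 3, Itga7 75.4 ± 25.1 CPM and Itga6 73.4 ± 24.5 CPM. Itgb4, the integrin chain of hemidesmosomes, had 37, 34 and 22 counts. Dag1, which encodes dystroglycan, had 8844, 8078 and 8913 counts (356 ± 2.69 CPM) and was not called (adjusted p = 0.666 by the chi-square test). Sdc1, a syndecan, had 323 ± 17.1 CPM.

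Itga6 and Itga7 differed between clones in opposite ways. Itga7 had 2593, 1413 and 1497 counts, with clone 1 highest as for Lama5, and Itga6 had 1268, 2247 and 1758, with clone 2 highest as for Lama4. Of the 14 receptors, 13 were tested and 8 called (3 highest in clone 1, 4 in clone 2, 1 in clone 3), near the 62.5% called of all genes tested, and none had a range of 2-fold. The median range was 1.24-fold, equal to that over all genes tested.

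**Figure D4:**
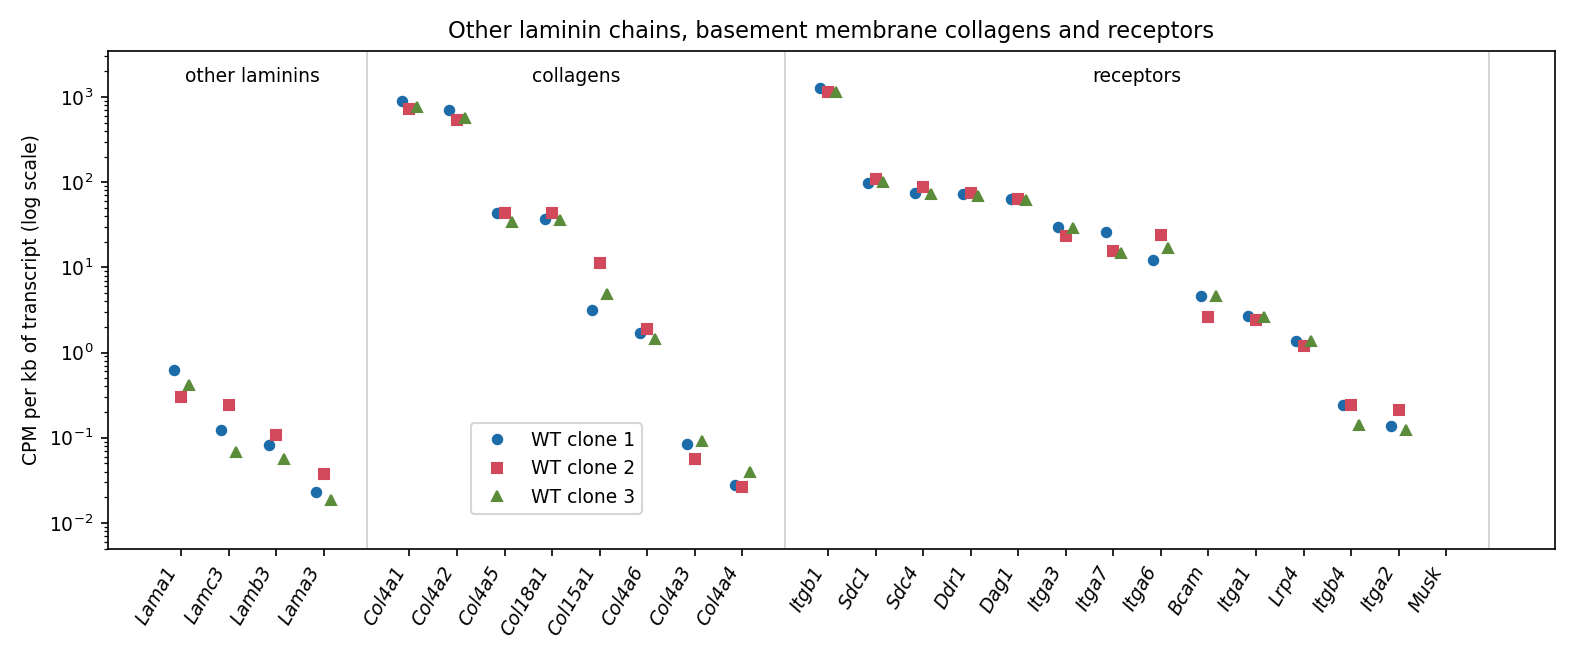
Level per kb of transcript (CPM per kb, log axis) of other laminin chains, basement membrane collagens and receptors, with 1 point per WT clone. Col4a1, Col4a2 and Itgb1 lie far above the rest, the remaining laminin chains drawn lie at 0.617 CPM per kb or less, and Musk, at 0 counts, has no point.

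Dystroglycan binds laminin, perlecan and agrin only through a sugar chain that a set of enzymes builds. Of 12 such enzymes listed, 9 were matched and tested, and 7 were called, against 62.5% of all genes tested, with a median range over those tested of 1.18-fold and none with 2-fold. Examples were Pomgnt1 at 103 ± 9.24 CPM and Tmem5 (Rxylt1) at 47.7 ± 2.87 CPM (SD, n = 3). All 14 listed enzymes that build heparan sulphate were above 1 CPM, led by Ext1 (277, 248 and 233 CPM in clones 1, 2 and 3), which polymerizes the chain with Ext2 (203 ± 32.6 CPM), and by the sulphotransferase Hs6st2 (210 ± 24.6 CPM). Of these 14, 12 were called against 62.5% of all genes tested, with 6 highest in clone 1 against 23.8%, 4 in clone 2 and the other 2 in clone 3, a median range of 1.20-fold and none with 2-fold. Hspg2, whose product carries such chains, had a wider range (1.48-fold) than the median of these enzymes.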

How the data were processed

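Total RNA of 3 WT MEF clones was polyA-selected and sequenced on a HiSeq2000 or HiSeq2500. Per the methods, the authors aligned 86-nt single-end reads with TopHat 2.0.0 (Bowtie 0.12.7, Samtools 0.1.16), with 2 mismatches and 5 multi-hits allowed, and assigned them to mm10 genes with HTSeq. The submitters' processing notes name mm9 instead. The annotation and the strand setting are not given in the sources used here. The authors deposited raw counts per gene symbol, without coordinates. Reads with several positions or in overlapping genes can add to a count or be missing from it. Total counts were 22594316 to 25261357 per library, and 1 count was 0.0396 to 0.0443 CPM.

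CPM used TMM-scaled library sizes (edgeR 4.0.16, R 4.3.3). Coefficients of variation came from an intercept-only edgeR fit. Differences between clones were tested with a Pearson chi-square test (2 degrees of freedom, Benjamini-Hochberg adjustment) over genes that reached 10 counts in each clone, since a single condition allows no fit of a contrast. The procedure was run on simulated counts that held counting error alone, with changes added to some genes. They lacked the variation between clones seen in these data, so the run does not show how the test behaves with it. Lengths, positions and proteins came from GENCODE M21 (GRCm38). Intervals of ratios are exact binomial and those of shares Wilson, at 95%. The limit for a count of 0 was set at 3 counts. Proteins were aligned with Biopython 1.88 (BLOSUM62). Outside the members, the genes set for naming were the 3 of highest mean CPM in a list, those at 3 counts or fewer in every clone and preset partners. Not all of these are named. Some genes of the lists are not reported here. The members and lists were chosen with earlier results of these data known. Further genes named with their counts or CPM were chosen after their values were seen. Alternatives were DESeq2 1.42.0 size factors and dispersions, total counts, other thresholds on low counts, other lengths and leaving out each clone.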

Additional observations from a re-analysis of the deposited data

How the results depend on the processing

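No paired analysis was possible because all libraries belong to 1 group. The number of members called stayed between 7 and 10 under all alternatives. Leaving out a clone gave 0 to 1 members called with a 2-fold range (0 without clone 2), 3893 to 6531 genes called among all tested (7642 with all clones), and 31.7% to 53.0% of those tested, lowest without clone 1. Without clone 2, the variation of Lama4 between clones fell to 0.140.

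The order per kb depended on length where neighbours were not separated. With no length, the log2 ratio was -0.98 for Nid1 over Hspg2, -0.35 for Lamb2 over Lamc1, -0.72 for Nid2 over Lama5 and -0.56 for Lama4 over Lama2. With coding length alone, it was -0.52 for Lamb2 over Lamc1, and with all annotated exons -0.12 for Lama4 over Lama2. For Nid1 over Hspg2 it rose to 0.84 ± 0.31 with coding length alone and to 0.42 ± 0.03 without clone 1 (SD), both means above 2 SD. Leaving out a clone gave -0.07 to 0.18 for Lamb2 over Lamc1 (negative without clone 1) and -0.41 to 0.39 for Lama4 over Lama2 (negative without clone 2). Among the separated pairs, Hspg2 over Lamb1 no longer passed without clone 2, nor Agrn over Lama4 without clone 1 or without clone 3.

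The Nid1 share was 89.7% in raw counts and 90.7% with coding length, and the Hspg2 share 95.6% in raw counts. With all annotated exons, a length chosen for shares after seeing the data, the Hspg2 share was 93.4% and the Lamb1 share 67.1%. These moves follow from the lengths. When a clone was left out, the Lama5 share ranged from 67.9% without clone 1 to 80.1% without clone 2. With all clones and all annotated exons it was 82.7%. Lama3 and Lamb3 had under 10 counts in at least 1 clone and were not tested.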
